A study of Sus scrofa with 20 samples.

Results

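Mitochondrial ribosomal proteins build the ribosome inside mitochondria, and their transcripts were examined in backfat, a subcutaneous fat depot along the back, of Italian Large White pigs. Members were the loci of the count table whose gene identifier matched a single pig symbol starting with MRPL, for the large subunit, or MRPS, for the small subunit. This rule found 36 loci of 35 symbols among 23483 loci, of which 9139 carried a single symbol. The large subunit had 24 loci of 23 symbols and the small subunit 12. MRPL48 was split over 2 loci with the same gene identifier, XLOC_033550 and XLOC_034171. The table of gene names held 65 MRPL and MRPS symbols, and 30 of them had no member locus. For 3 loci the symbol stood beside that of a second gene (MRPL10 with OSBPL7, MRPS34 with NME3, MRPL28 with PGAP6), and these are not members.

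Libraries came from 10 females and 10 castrated males, 1 per animal, with no other treatment or genotype recorded. Per the labels, the pigs shared housing and diet, and slaughter took place at a weight of 150 to 160 kg and an age of 233 to 250 days. Females averaged 244.3 ± 5.64 days and castrated males 240.4 ± 4.53 days (SD, n = 10 each). Libraries are named by labelled sex and by a number that follows the order of deposition and pairs no animals.

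The mitochondrial ribosome translates the few mRNAs of the mitochondrial genome, all of which encode subunits of the respiratory chain and the ATP synthase. Its RNAs are made in the organelle, while all of its proteins are encoded in the nucleus, made in the cytosol and imported. Fat cells use mitochondria for fuel oxidation and for supplying citrate to fatty acid synthesis.

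Total counts ran from 25754778 to 51248122 per library (median 36922247). The mitochondrially encoded loci took between 8.487% of counts, in castrated male 1, and 26.34%, in castrated male 10. A sex comparison without both libraries numbered 10 called 18 loci, and at these the left-out library labelled female 10 lay nearer the castrated male mean at 16 and the library labelled castrated male 10 nearer the female mean at 17. Both libraries therefore go against their labels. Castrated male 1 stood apart in macrophage markers, with a summed level of 1158 CPM (read counts scaled to library size with TMM factors). The median of castrated males was 295.4 CPM, and females ran from 106 to 441.5 CPM. Castrated male 1 was also the highest library for T and NK cell markers (122.5 CPM) and endothelial markers (2420 CPM). For fibroblast markers it was lowest, at 6828 CPM, against a castrated male median of 16030 CPM and 13850 to 21270 CPM in females. Adipocyte markers, of which 7 of 13 had a locus, summed to 3722 to 7034 CPM in females, to 3207 to 7860 CPM in castrated males, and none was at 0 in all libraries.

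All 36 loci passed the filter on low counts, and the lowest count of any member in any library was 61. Levels are compared between genes as FPKM, fragments per kilobase of transcript normalised for sequencing depth. Member means had a median of 23.9 FPKM, 23.5 for large-subunit and 28.4 for small-subunit loci, and spanned 59.1-fold. For comparison, median levels were 142.6 FPKM over 38 nuclear-encoded respiratory chain loci, 1126 FPKM over 22 cytosolic ribosomal protein loci and 10520 FPKM over 10 mitochondrially encoded loci. The mitochondrial ribosomal proteins thus had the lowest median level of these sets.

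The highest members came from both subunits. MRPS6, a small-subunit protein with a bacterial counterpart, led with 81.3 ± 23.3 FPKM (SD, n = 20), ranging from 41.8 in female 3 to 135.2 in female 7. MRPL24 of the large subunit averaged 60.3 ± 9.76 FPKM. MRPS9, a protein of the head of the small subunit, averaged 57.6 ± 11.2 FPKM. MRPS33, a protein special to mitochondrial ribosomes, averaged 55.4 ± 7.39 FPKM, and MRPL38 of the central protuberance averaged 45.2 ± 4.50 FPKM. MRPL24, MRPS9 and MRPS33 lay closer to one another than the SD of any of them. MRPS6 had the widest spread, and its gap to MRPL24 was smaller than its own SD.

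The lowest members were all of the large subunit. MRPL47 averaged 11.4 ± 2.001 FPKM and MRPL35 8.05 ± 0.763 FPKM. MRPL50 averaged 6.89 ± 1.13 FPKM and MRPL19, whose bacterial counterpart sits at the contact between the subunits, 3.89 ± 0.474 FPKM. The second locus of MRPL48, XLOC_034171, was lowest of all at 1.38 ± 0.375 FPKM, against 11.7 ± 2.58 FPKM at XLOC_033550. The order of levels was alike in all animals: the lowest Spearman correlation of 1 library with the mean over libraries was 0.956 across the 36 loci, which are not independent replicates.

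**Figure D1:**
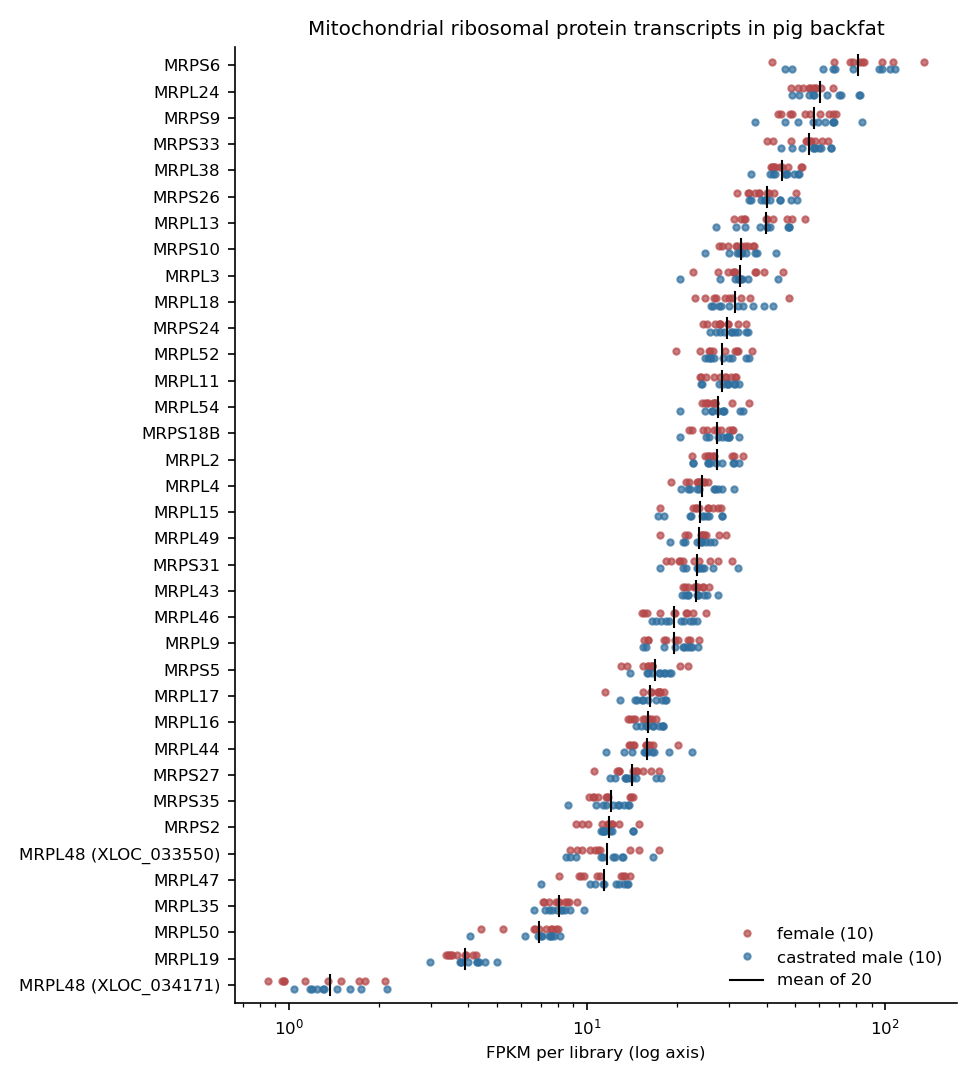
FPKM of the 36 loci in each of the 20 libraries on a log axis, with females as red points, castrated males as blue points and the mean of 20 as a black line, in order of the mean. Red and blue points overlap at every locus, and the means run from 1.38 to 81.3 FPKM.

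The count and FPKM tables ranked the members differently: 12 of 36 loci moved by at least 10 ranks. CPM is not corrected for transcript length, but the part of length in these moves was not tested. CPM divided by FPKM had a median of 1.39 over the members, but was 0.178 at MRPL49 and 6.67 at MRPL19. MRPL49 ranked 19 of 36 by FPKM and 35 by CPM, and MRPL9 ranked 23 by FPKM and 2 by CPM. In the RefSeq annotation of Sscrofa11.1, a later build than the Sscrofa10.2 of these files, MRPL49 overlaps SYVN1 and FAU, MRPL19 overlaps GCFC2 and MRPL9 overlaps OAZ3. Of the 35 member genes, 13 overlap another gene there, MRPS6 (SLC5A3) and MRPS18B (PPP1R10) among them. Strand use in counting is not given in the sources used here, so reads of such pairs may not be told apart, and levels of these 13 are uncertain.

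Isoform FPKM could be tied to 35 of the 36 loci, all but MRPS6, and gave 103 isoforms. A single isoform made up 8 loci. Of the 27 loci with several, 19 had the same leading isoform in all 20 libraries, and in 9 that isoform held on average over 90% of the locus. MRPS2 had the most isoforms, 10, and the share of its leading one ran from 5.9% to 80.1%. At MRPL47 the leading isoform held 41.8% to 99.9% of the locus and another led in 6 libraries. MRPL52 had 2 isoforms near balance, with the usual leader at 52.4% on average and the other ahead in 7 libraries.

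Variation between animals was small for most members. The SD of log2 CPM after removal of the sex means had a median of 0.194 over the 36 loci. Among loci of mean CPM of at least 10, the median was 0.190 over 34 members and 0.262 over all 8769 loci, and 29 of the 34 lay below the latter. The same median was 0.316 for the nuclear respiratory chain, 0.168 for cytosolic ribosomal proteins and 0.532 for the mitochondrially encoded loci. None of these sets was matched to the members in level. From the lowest to the highest library, members spanned 1.30-fold to 2.98-fold in CPM, with a median of 1.62-fold.

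MRPS6 varied most, with an SD of 0.404. In females its level ran from 30.0 through a median of 59.6 to 89.4 CPM, in castrated males from 34.5 through 51.0 to 74.5 CPM, with female 3 lowest and female 7 highest. MRPS2, which like its bacterial counterpart belongs to the small subunit, had an SD of 0.317. Its lowest libraries in each sex were the 2 that go against their labels, at 20.2 CPM in female 10 and 22.8 CPM in castrated male 10. Its highest was female 7 at 51.7 CPM. The libraries numbered 10 also had the fewest total counts, 25754778 and 28009303. MRPS26, MRPL38, MRPL17, MRPL52 and MRPL11 were likewise lowest in each sex in these 2 libraries. The part of depth in these levels was not tested. MRPL48 at XLOC_034171 had an SD of 0.381, above that of MRPS2, but on a mean of only 2.75 CPM. Among members of mean CPM of at least 5, the others of high SD were MRPL48 at XLOC_033550 (0.301), MRPS9 (0.288) and MRPS26 (0.269). At the steady end stood MRPL43 with an SD of 0.0994, followed by MRPL35 (0.109), MRPL19 (0.117), MRPS24 (0.118) and MRPS10 (0.119). MRPL43 stayed between 27.7 CPM in castrated male 1 and 36.1 CPM in castrated male 4. Fewer cells of a type and less RNA per cell cannot be told apart in these whole-tissue libraries.

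**Figure D2:**
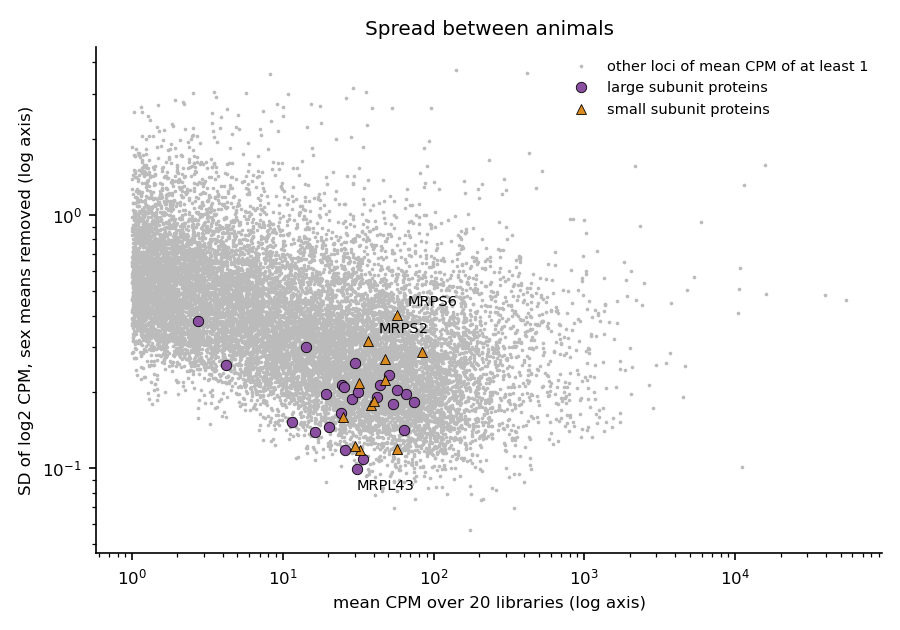
SD of log2 CPM with the sex means removed against mean CPM over 20 libraries, both on log axes, for other loci (grey), large-subunit members (purple circles) and small-subunit members (orange triangles). Most members lie in the lower part of the grey cloud, and MRPS6 stands highest at 0.404.

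Added together, the 36 loci held 1309 ± 87.5 CPM in the 10 females, against 1334 ± 133 CPM in the 10 castrated males (SD). Female values ran from 1151 in female 3 through a median of 1313 to 1470 in female 4. Castrated male values ran from 1123 in castrated male 1 through 1337 to 1547 in castrated male 5, so the groups overlapped nearly throughout. Without both libraries numbered 10 the means were 1311 ± 92.5 CPM in females, against 1352 ± 126 CPM in castrated males (SD, 9 animals each). As a share of counts outside the mitochondrially encoded loci, the sum was 0.154 ± 0.00767% in females and 0.157 ± 0.0117% in castrated males. The ratio of large-subunit to small-subunit CPM was 1.51 ± 0.0673 over 20 libraries and stayed between 1.39 and 1.63. Castrated male 5 was the highest library for 14 members and female 4 for 6. Castrated male 1 was the lowest for 9 and castrated male 10 for 7. Castrated male 5 also had the highest sum of skeletal muscle markers, 116 CPM, with 4 of 16 markers having a locus. Females reached 95.5 CPM with a median of 38.3 CPM, and the median of castrated males was 24.3 CPM. The part of muscle RNA in the levels of castrated male 5 was not tested.

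Levels of the members covaried positively across animals. Over the 630 pairs of members, the median Pearson correlation of log2 CPM with the sex means removed was 0.332, and 83.7% of pairs lay above 0. Over pairs of all 8769 loci of mean CPM of at least 10 the median was 0.0097, with 51.1% above 0. Pairs within the large subunit had a median of 0.381, pairs within the small subunit 0.193 and pairs between subunits 0.301. The nuclear respiratory chain, at 0.775, and the cytosolic ribosomal proteins, at 0.668, had higher medians. These correlations run over the same 20 libraries, share their scaling factors, and are descriptions with no test.

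Not every member followed the others. Against the mean z-score of the remaining members, 23 of 36 loci had a correlation above 0.5 and 7 had one below 0.3. MRPL2, a core large-subunit protein near the site of peptide bond formation, followed the rest most closely at 0.897, ahead of MRPS18B (0.827) and MRPS9 (0.808). MRPL49 (-0.056) and MRPS5 (0.0072) did not follow it. The closest pair was MRPS31 with MRPL3 at 0.917, and the most opposed was MRPL49 with MRPL48 at XLOC_034171 at -0.608. MRPL49 rested on the second-lowest level in CPM, with as few as 84 counts in a library.

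**Figure D3:**
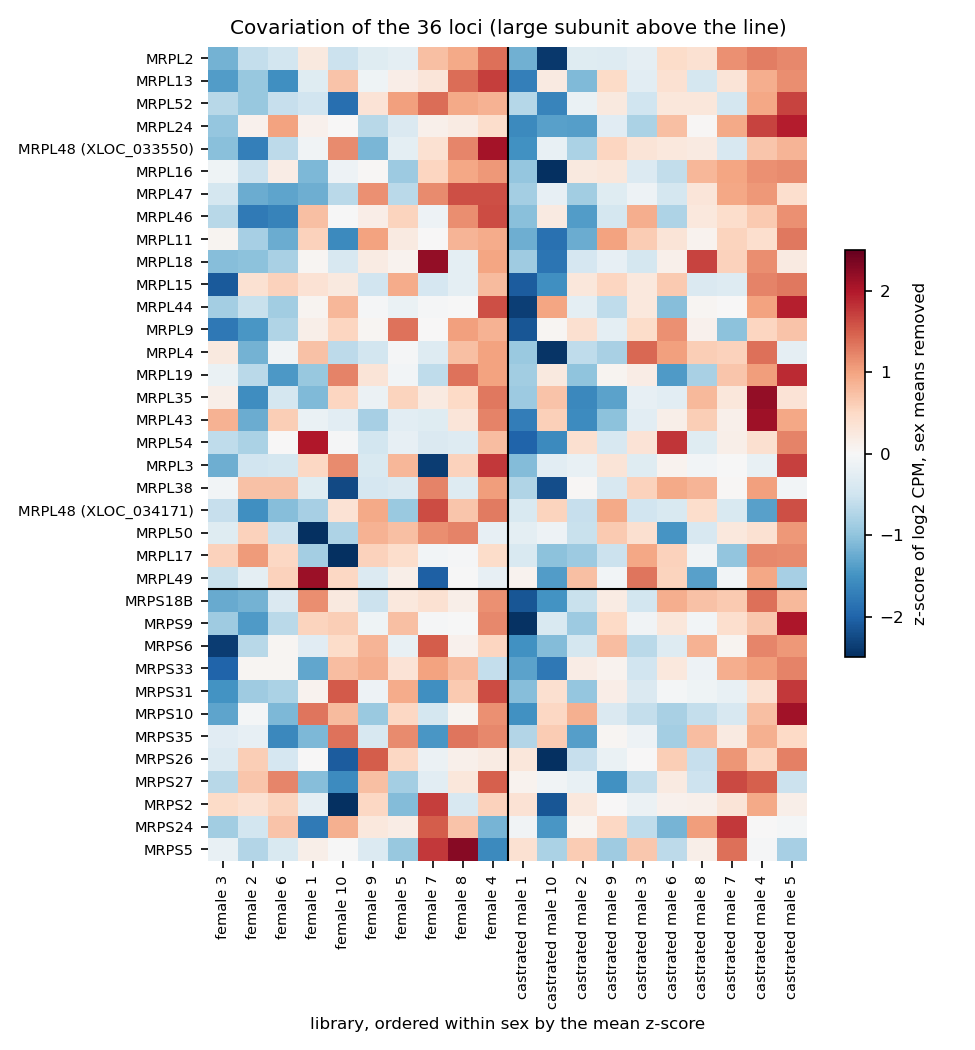
Log2 CPM of each locus with the sex means removed, as z-scores (colour, blue low and red high), with libraries ordered within each sex by the mean over members and loci by their correlation with the rest. Castrated male 1 and female 3 are blue for most loci, castrated male 5 and female 4 red, and MRPL49 and MRPS5 at the foot of each block break the pattern.

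Among 6910 other loci with a single symbol and mean CPM of at least 5, the 10 closest to the members' mean z-score had correlations of 0.853 to 0.909 over the 20 libraries. They were SNF8, an ESCRT protein (0.909), the ubiquitin ligase PJA1 (0.904), UFC1 of the UFM1 conjugation system (0.901), the proteasome subunit PSMD13 (0.895) and WDR83OS (0.863). PBDC1 (0.858), APOOL of the mitochondrial inner membrane (0.857), the antizyme OAZ1 (0.854), the peptide transporter SLC15A1 (0.854) and the cytosolic ribosomal protein RPS4X (0.853) followed. No nuclear-encoded respiratory chain gene was among these 10, but that set held only 38 of the 6910 loci, so its absence from so short a list says little.

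No member passed the test between females and castrated males. In edgeR's quasi-likelihood test over 21587 loci, with Benjamini-Hochberg adjustment at 0.05, 0 members and 0% of all loci were called. At an unadjusted p under 0.05 there were 0 members against 4.33% of all loci, and DESeq2 also called 0 members. The log2 difference, females minus castrated males, had a median of -0.029 over members and 0.0036 over all loci. It lay above 0 for 10 of 36, ran from -0.137 at MRPL24 to 0.15 at MRPS6, and had 95% intervals reaching from -0.466 to 0.492. Without both libraries numbered 10 there were again 0 members called, 9 of 36 above 0 and a median of -0.029, while 18 loci of the table were called. The count above 0 was 6 of 36 with age in the model, where the median was -0.068, 5 without female 4 and 16 without castrated male 4.

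Among the members, MRPL19 had the smallest p of the sex comparison. Females ran from 22.0 through a median of 24.5 to 27.7 CPM, castrated males from 24.1 through 27.3 to 31.5 CPM. The groups overlapped, and the difference of -0.13 ± 0.067 (SE) had an unadjusted p of 0.0673 and an adjusted p of 1 in edgeR. MRPL24 differed by -0.14 ± 0.091 and MRPS6 by 0.15 ± 0.16, both with an adjusted p of 1. The mean of MRPS6 was 60.5 ± 15.8 CPM for females, against 54.5 ± 14.3 CPM for castrated males (SD, n = 10 each). MRPL16 (-0.091 ± 0.077), MRPL4 (-0.093 ± 0.095), MRPL49 (0.074 ± 0.13), MRPL15 (0.042 ± 0.091) and MRPS24 (0.031 ± 0.066) complete the 4 members of smallest p in each direction. Without both libraries numbered 10 the difference was -0.14 ± 0.070 for MRPL19, -0.16 ± 0.094 for MRPL24 and 0.099 ± 0.18 for MRPS6. Of the others, those of MRPL49 (0.033), MRPL15 (0.014) and MRPS24 (0.0090) were then closer to 0 and those of MRPL16 (-0.12) and MRPL4 (-0.12) farther from it.

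With age, members leaned upward without passing the test. Fitted with sex in the model, 0 members and 0% of loci were called for the slope per 10 days. The slope lay above 0 for 32 of 36 members, with a median of 0.096 against 0.0008 over all loci. At an unadjusted p under 0.05 and above 0 there were 4 members, or 11.1%, against 1.78% of all loci, and DESeq2 called 0 members. The respiratory chain leaned the same way, with 38 of 38 slopes above 0 and a median of 0.202, and cytosolic ribosomal proteins had 20 of 22 and 0.103. The mitochondrially encoded loci had 0 of 10 above 0 and a median of -0.22. Loci within each set covaried over the same animals, so these counts are not counts of independent observations.

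The 4 members were MRPL24 (0.21 ± 0.082, SE), MRPL48 at XLOC_033550 (0.31 ± 0.13), MRPS6 (0.36 ± 0.16) and MRPS9 (0.26 ± 0.12), with adjusted p of 0.859 to 0.867 in edgeR. Their intervals were wide, reaching from 0.033 to 0.678 for MRPS6. The 4 slopes below 0, of MRPS26 (-0.022), MRPL17 (-0.013), MRPS2 (-0.0070) and MRPL38 (-0.0003), were all within their SE of 0, and all 4 lay above 0 without both libraries numbered 10, where 36 of 36 did, and with upper-quartile scaling.

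Age slopes were then compared between females and castrated males, and 0 members and 0% of loci were called. DESeq2 also called 0 members. Only 1 member had an unadjusted p under 0.05, against 5.42% of loci. That was MRPL17, with a slope lower in females by a log2 difference of -0.35 ± 0.14 (SE) per 10 days and an adjusted p of 0.895 in edgeR. MRPS26 (-0.44 ± 0.23), MRPL24 (-0.30 ± 0.16) and MRPL44 (-0.29 ± 0.17) came next. The differences lay above 0 for 7 of 36 members and 51.7% of all loci, with medians of -0.14 and 0.016. Without both libraries numbered 10 there were 0 members called, 8 of 36 above 0 and a median of -0.11, with -0.28 ± 0.11 for MRPL17 and -0.35 ± 0.16 for MRPS26.

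**Figure D4:**
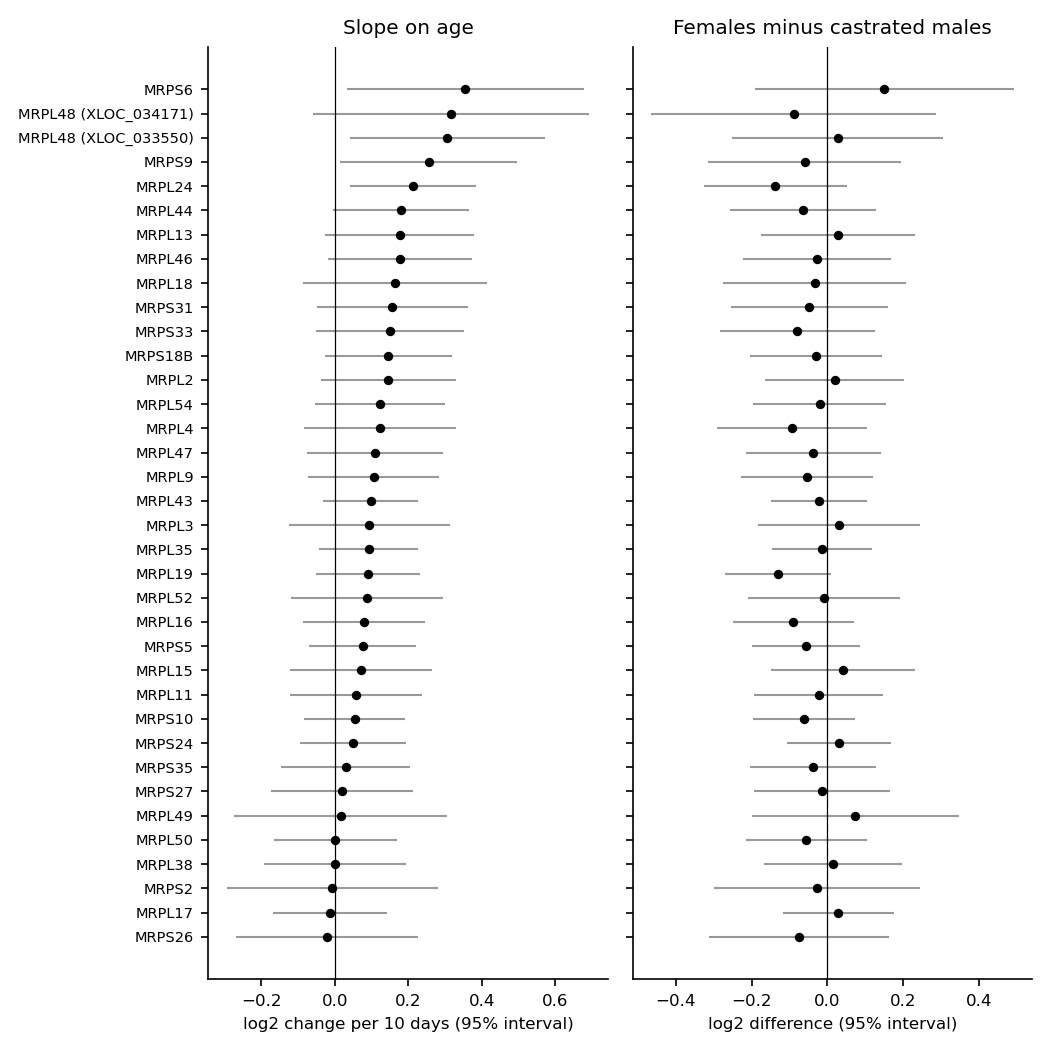
Log2 slope per 10 days of age (left) and log2 difference of females minus castrated males (right) for the 36 loci, as points with 95% intervals, in the order of the age slope. Most slopes lie right of 0, with MRPS6 at 0.36, while the sex differences scatter close to 0.

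The proteins of this ribosome serve transcripts made in the organelle, so their levels were set against the share of counts at the mitochondrially encoded loci. No member was called for the slope per SD of that share, and 12 loci of the table were (0.0556%), 10 of them the mitochondrially encoded loci themselves. Unadjusted, 0 members had a p under 0.05 against 8.26% of loci, and DESeq2 called 0 members. The slope lay above 0 for 10 of 36 members and 47.6% of all loci, with medians of -0.015 and -0.0063. Member slopes ran from -0.108 at MRPS26 to 0.036 at MRPS35. The count above 0 depended on single libraries: it was 4 without castrated male 1, 20 without castrated male 10 and 23 without both libraries numbered 10. In the respiratory chain the slope lay above 0 for 35 of 38 loci, with a median of 0.063. That too depended on castrated male 1. The mean z-score of these 38 loci and the share had r = 0.179 over 20 libraries and -0.035 without castrated male 1.

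Covariation with the nuclear-encoded respiratory chain was tested through a score per library, the mean z-score of 38 loci of NDUF, SDH, UQCR, COX, CYC1 and ATP5 genes, none of them a member. At an adjusted p under 0.05, 3 members rose with the score, or 8.33%, against 2.39% of all loci. Without adjustment 17 passed above 0, or 47.2%, against 9.85% of all loci. Slopes lay above 0 for 33 of 36 members, including 24 of 24 in the large subunit and 9 of 12 in the small, with a median of 0.088 per SD against -0.0038 over all loci.

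MRPL48 at XLOC_033550, a protein of the central protuberance, had 9.74 to 21.5 CPM in females (median 13.4) and 10.16 to 16.6 CPM in castrated males (median 14.7). The highest library was female 4, which also had the highest score, and castrated male 1, with the lowest score, was second lowest. The slope was 0.23 ± 0.048 per SD (SE, adjusted p = 0.0102, edgeR).

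MRPS9 had 60.7 to 102.2 CPM in females (median 80.2) and 50.7 to 124.2 CPM in castrated males (median 84.9), with castrated male 1 lowest and castrated male 5 highest. Its slope was 0.21 ± 0.047 (adjusted p = 0.0158, edgeR). MRPS18B, one of several mammalian relatives of a single bacterial protein, had 32.4 to 43.6 CPM in females (median 38.7) and 29.6 to 45.5 CPM in castrated males (median 40.6). Its slope was 0.14 ± 0.032 (adjusted p = 0.0228, edgeR).

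These calls rest in part on castrated male 1, which had a score of -2.54 SD. Without it, 0 members and 103 loci were called instead of 3 and 870. The slopes were then 0.22 for MRPL48 (adjusted p = 0.0534), 0.15 for MRPS9 (0.189) and 0.11 for MRPS18B (0.182), and 35 of 36 member slopes lay above 0. The score was rescaled to the remaining libraries, so these slopes are per another SD than those above and do not compare directly in size. Without female 4, the library of the highest score, only MRPS9 was called, with 320 loci of the table. MRPS18B was not called without female 2 either. Leaving out the library labelled female 10 gave 6 members and 1298 loci, and leaving out castrated male 10 gave 5 and 971.

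**Figure D5:**
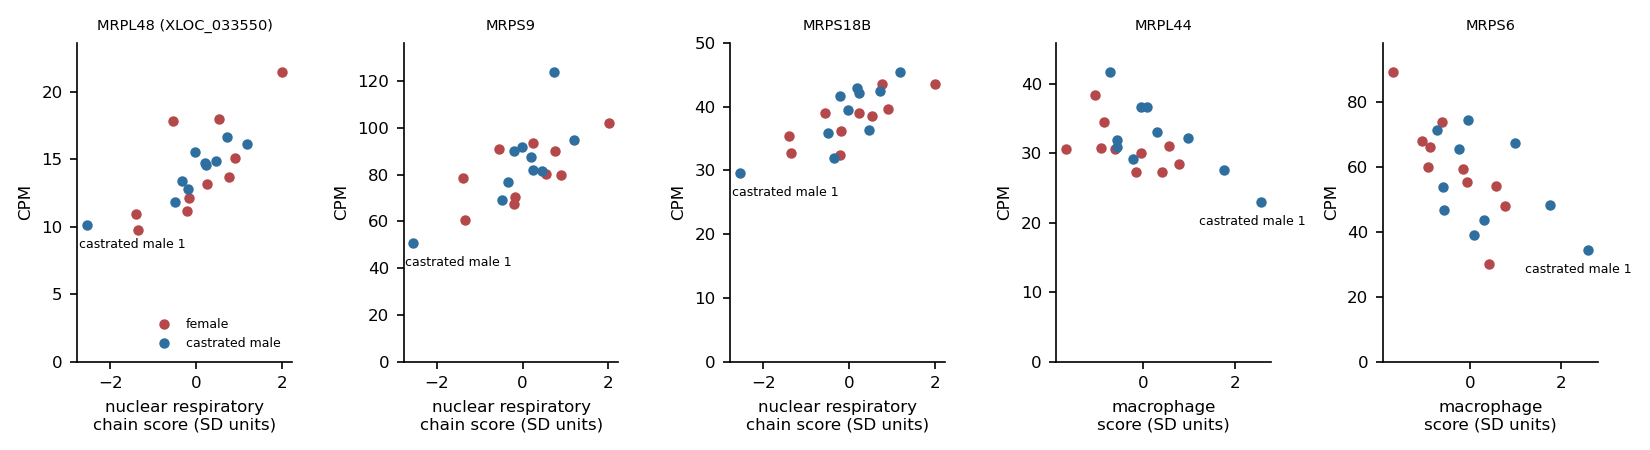
CPM of the 3 members called against the nuclear respiratory chain score (left panels) and of the 2 called against the macrophage score (right panels), per library, with females in red and castrated males in blue. Castrated male 1 lies at the end of each score axis, at -2.54 and 2.58 SD.

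Fatty acid synthesis, a main activity of backfat that draws on mitochondrial citrate, was scored from 7 loci of 6 of the 11 listed genes. No member was called for a slope above 0 on this score, against 1.51% of all loci. Without adjustment 9 members passed above 0, or 25%, against 7.96%. DESeq2 called 3 members, but also 1018 loci of the table, where edgeR called 448. Leaving out castrated male 5 gave 1 member and 612 loci. Castrated male 1 had the lowest score, -2.85 SD, and without it 0 members and 70 loci were called instead of 0 and 448. The member median was then 0.038 per SD of the score over the remaining libraries, another unit than in the full fit. With all 20 libraries, slopes lay above 0 for 29 of 36 members and 47.8% of all loci, with medians of 0.055 and -0.0072. The smallest p-values among members belonged to MRPS18B (0.12 ± 0.036, SE), MRPL4 (0.13 ± 0.040) and MRPL54 (0.12 ± 0.037), with adjusted p of 0.0908 to 0.0979 in edgeR. MRPL50 had the smallest p of the members below 0, at -0.043 ± 0.040.

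The respiratory chain score and the fatty acid synthesis score covaried across the 20 animals, with r = 0.778 (permutation p = 0.00015, adjusted p = 0.0006 over 4 relations) and rho = 0.564 (permutation p = 0.0108). Without castrated male 1 and female 4, the libraries farthest from the median, r was 0.552. The slopes on either score are therefore not separate observations.

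Macrophage markers, of which 9 of 14 had a locus, gave the last score. With it, 2 members fell at an adjusted p under 0.05, or 5.56%, against 2.51% of all loci in that direction. Without adjustment 9 members passed below 0, or 25%, against 10.3%. Slopes lay above 0 for 3 of 36 members and 49.7% of all loci, with medians of -0.069 and -0.001 per SD.

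MRPL44, a large-subunit protein with a fold related to RNase III, had 27.3 to 38.4 CPM in females (median 30.6) and 23.05 to 41.8 CPM in castrated males (median 32.1). Castrated male 1, the library of the highest macrophage score, was lowest, and castrated male 5 was highest. The slope was -0.15 ± 0.043 per SD (SE, adjusted p = 0.0414, edgeR). MRPS6 had a slope of -0.25 ± 0.076 (adjusted p = 0.0456, edgeR), with its highest level in female 7, the library of the lowest score.

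Neither call held without castrated male 1, where 0 members were called and the slopes were -0.099 for MRPL44 (adjusted p = 0.249) and -0.20 for MRPS6 (adjusted p = 0.182). This score was likewise rescaled to the remaining libraries, so the sizes of these slopes do not compare directly with those above. Both calls were also lost without any 1 of female 2, female 3, female 4, castrated male 4 and castrated male 5. MRPL44 alone was called without any 1 of females 1, 5, 6, 7, 8 and 10 and castrated male 9, and it was not called without castrated male 6. Leaving out castrated male 2 gave 4 members and 1707 loci of the table, against 1497 loci with all libraries.

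The macrophage score and the respiratory chain score had r = -0.50 (permutation p = 0.0266, adjusted p = 0.0532 over 4 relations) and rho = -0.301 (permutation p = 0.198), and r = -0.083 without castrated male 1 and female 4, so that relation rests on those libraries.

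Other genes of mitochondrial translation were followed by lists. Of 6 mitochondrial ribosomal proteins with other names, 2 had a locus, CHCHD1 (13.8 FPKM) and PTCD3 (10.3 FPKM), both under the members' median of 23.9 FPKM. Neither was called in any comparison. The CHCHD1 slope on the respiratory chain score was 0.12 ± 0.034 (SE, adjusted p = 0.0563, edgeR), and that of PTCD3 was -0.0005 ± 0.035.

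Of 19 translation factors and partners, 14 had a locus and 2 rose with the respiratory chain score, where 2.39% of all loci did. TUFM, the elongation factor that brings aminoacyl-tRNA to this ribosome, had a slope of 0.22 ± 0.033 (adjusted p = 0.0006, edgeR) and also rose with the fatty acid synthesis score (0.20 ± 0.037, adjusted p = 0.0045). SLIRP, which stabilises mitochondrial mRNAs, had a slope of 0.27 ± 0.068 (adjusted p = 0.0295). Its level was 187.5 FPKM, above that of every member, but rested on 2.61 CPM in females. Of 29 assembly and rRNA modification factors, 13 had a locus (15 loci) and 1 rose, the rRNA methyltransferase METTL15 (0.23 ± 0.060, adjusted p = 0.0337), against the same 2.39%. Without castrated male 1, TUFM was called for both scores (adjusted p = 0.0044 and 0.0378), while SLIRP (0.211) and METTL15 (0.175) were not. ERAL1, a chaperone of the small-subunit rRNA, had the smallest unadjusted p of the age slopes in these lists (0.22 ± 0.076 per 10 days, adjusted p = 0.859).

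Of 20 mitochondrial tRNA synthetases 8 had a locus, of 14 genes of mitochondrial DNA expression 7, and of 9 regulators of mitochondrial biogenesis 5. None of these was called in any of the 7 comparisons. Their smallest unadjusted p-values were 0.0214 for EARS2 (slope on the mitochondrially encoded share, -0.12 ± 0.049, SE), 0.0078 for SSBP1 (difference of age slopes, -0.45 ± 0.15) and 0.0099 for PPRC1 (slope on the respiratory chain score, -0.26 ± 0.093). The adjusted p of these 3 in edgeR were 0.563, 0.895 and 0.107.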

How the data were processed

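Polyadenylated RNA was sequenced as paired reads of 100 bases, per the labels' protocols. Sscrofa10.2 is the build in the submitters' processing notes, which list Cufflinks 2.1.1, DESeq2, Bowtie2 2.1.0.0 and TopHat2 2.0.8 without roles. Strand use, the counter, the annotation release and the treatment of multiply matched reads are not given in the sources. The authors deposited raw read counts per locus, and FPKM per locus and per isoform.

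Members, lists and comparisons were chosen with earlier results of these data known. Counts of 20 libraries were fitted over the whole table with edgeR 4.0.16 (R 4.3.3, TMM factors, filterByExpr, which kept 21587 loci) and adjusted by Benjamini-Hochberg at 0.05. Slopes on scores and on the mitochondrially encoded share are per SD over the libraries in each fit, with sex in the model. Log2 CPM used a prior count of 2. Named members were those called, otherwise the 4 of smallest p per direction. The 5 highest and lowest levels and, at a mean CPM of at least 5, spreads were also named. So were the 10 loci most alike and up to 3 per list. Only the fits for sex, age and the respiratory chain score were tried on simulated data, and the outcome is not given here. Alternatives were DESeq2 1.42.0, limma 3.58.1, other scalings and filters, and libraries left out. Correlations between scores used 100000 permutations, two-sided. Isoforms were tied to loci where their FPKM summed to the locus value within 0.01% in all libraries. No sequence is shown. Nothing in the labels says whether libraries differ by batch.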

Additional observations from a re-analysis of the deposited data

Results flagged for a closer look

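In 6 of 72 groups of 10 libraries, 1 library lay far from the others in the CPM of a member, measured as its gap to the nearest library over the range of the group. Chance alone would give about 1 in 20 groups. MRPS2 was lowest in the library labelled castrated male 10, at 22.81 CPM against 35.45 CPM in the next, and MRPL38 in the library labelled female 10, at 31.16 CPM against 39.8 CPM. Castrated male 5 was highest for MRPS31, at 42.11 CPM against 34.23 CPM, and for MRPL3, at 65.38 CPM against 52.17 CPM, the members of the closest pair. MRPL54 was highest in female 1, at 68.3 CPM against 58.66 CPM. MRPL15 was lowest in female 3, at 42.82 CPM against 53.83 CPM.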

How the results depend on the processing

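No member was called for sex, age, the difference of age slopes or the mitochondrially encoded share under any alternative run. Over all loci, the sex comparison called 0, but 6 in DESeq2, 18 without both libraries numbered 10, 9 in limma-voom with quality weights, and 11 and 9 in limma on log2 FPKM with pseudocounts of 0.1 and 1. The mitochondrially encoded share called 12 loci and 49 in DESeq2. For the respiratory chain score, 3 members were called, but 9 with upper-quartile scaling, 11 in DESeq2, 8 without both libraries numbered 10, 0 without castrated male 1 and 1 to 6 without single other libraries. Over all loci these counts were 870, 1268, 1855, 1563, 103 and 320 to 1298. For fatty acid synthesis, 0 members became 1 with upper-quartile scaling, 3 in DESeq2, 1 without both libraries numbered 10 and 0 to 1 without single libraries. Of all loci, 448 became 487, 1018 and 500 under the first 3, 70 without castrated male 1 and 282 to 612 without single other libraries. For the macrophage score, 2 members became 4 in DESeq2, 0 without castrated male 1 and 0 to 4 without single other libraries. Of all loci, 1497 became 2329, 611 and 1096 to 1707 in the same fits. The median spread was 0.1854 without castrated male 1. The median pair correlation was 0.2949 without castrated male 1, 0.3654 without both libraries numbered 10, 0.3896 with upper-quartile scaling and 0.4288 on log2 FPKM. The median slope on the mitochondrially encoded share turned to 0.0035 without both libraries numbered 10, and ran from -0.0495 to 0.0007 without single libraries. MRPS24 between the sexes turned to -0.08321 and -0.08072 on log2 FPKM with pseudocounts of 0.1 and 1. Age slopes near 0 changed sign. MRPS26 had 0.0007142 with upper-quartile scaling and 0.05752 without both libraries numbered 10, and MRPL17 had 0.008753 and 0.04381. MRPS2 had 0.01628 and 0.09851, 0.003416 with DESeq2 size factors, 0.003468 in DESeq2 and 0.008561 without castrated male 1. MRPL38 had 0.02111 and 0.06673, 0.00858 with DESeq2 size factors, 0.008866 in DESeq2 and 0.004401 with age alone. Without single libraries, MRPS26 ran from -0.1157 to 0.05237, MRPL17 from -0.05796 to 0.04193, MRPS2 from -0.08359 to 0.0881 and MRPL38 from -0.03075 to 0.06091. The cause of these changes was not tested. No paired analysis was possible because the labels carry no replicate numbers. The leave-one-out fits of the 3 scores were chosen after seeing the data. MRPL48 at XLOC_034171 and MRPL49 rest on the fewest counts.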
